A study of Mus musculus with 10 samples.

Results

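The genes described here are 10 genes of the blood-brain barrier and of drug efflux: Cldn5, Ocln, Flt1, Pecam1, Slco1a4, Abcb1a, Abcg2, Slc2a1, Mfsd2a and Itm2a. They were chosen by symbol for these roles, and all 10 were found by gene identifier among the 22255 genes of the deposited table. RNA had been prepared from hippocampal synaptoneurosomes, a fraction of pinched-off and resealed synaptic compartments, of C57Bl/6J mice. The study's title describes the animals as naïve and the design text as wild type. One group of 5 libraries came from mice given vehicle, and the other group of 5 from mice given AM6545, both sub-chronically. AM6545 blocks CB1, a cannabinoid receptor, and was made to act mainly outside the brain. The labels used here give no dose, duration, age or sex, and leave unsaid if any library pools several animals. The unit of replication is therefore the library, and p-values measure only the spread between libraries, which may be technical.

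The blood-brain barrier is formed by endothelial cells of brain capillaries, which are sealed to each other by tight junctions and lack the leaky pores of vessels elsewhere. Nutrients cross through dedicated carriers in the cell membrane, while ATP-driven efflux pumps return many lipophilic drugs to the blood. The epithelium of the choroid plexus forms a second barrier, between blood and cerebrospinal fluid, and uses some of the same junction proteins and carriers. The preparation of synaptoneurosomes aims at neuronal contacts and not at vessels. In bulk RNA of this kind, fewer vessel cells and less RNA per vessel cell cannot be told apart.

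Library totals ranged from 18106112 to 25899794 estimated counts. Levels are compared between libraries in CPM, the count scaled to a fixed library size by the TMM method. A list of 8 markers of excitatory neurons summed to 2365 to 2890 CPM with vehicle and 2564 to 2881 CPM with AM6545. With vehicle, astrocyte markers summed to 2536 to 3154 CPM and oligodendrocyte markers to 14454 to 20967 CPM. Sums of vascular markers were lower. The lists hold different genes and the sums are not divided by transcript length, so they do not rank cell types by abundance. A list of 12 brain endothelial markers beyond the 10 genes summed to 180.8 to 284.6 CPM with vehicle and 179.3 to 237.5 CPM with AM6545. For 12 pericyte markers the sums were 82.6 to 160.4 CPM and 84.5 to 146.7 CPM. Among single defining genes, the vascular endothelial cadherin gene Cdh5 had 1 to 9 counts per library and did not pass the expression filter. Kdr had 45 to 93 counts, and the pericyte genes Pdgfrb and Rgs5 had 64 to 126 and 421 to 591. Choroid plexus markers, a list of 12 genes led by Ttr, summed to 76.0 CPM in vehicle replicate 4, against 2796 to 5297 CPM in the other vehicle libraries and 699.9 to 4199 CPM in the AM6545 libraries. None of the 12 was at 0 in every library. Results for the 10 genes that rest on vehicle replicate 4 are therefore also given without it.

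Abcg2 encodes the breast cancer resistance protein, an efflux pump of the luminal endothelial membrane. RefSeq gives 3 separate start regions for Abcg2 on chromosome 6 of GRCm38.p6, and its annotated transcripts were assigned to them where their GENCODE M21 start lay within 100 bases. The 250 bases before each start are printed 5′ to 3′ on the plus strand, because the counts differed so much between them. Capitals mark GGGCGG, the GC box, or its reverse complement, and TATAAA, the TATA box, was searched on both strands as well.
Abcg2 start region 1, chr6:58584283-58584532: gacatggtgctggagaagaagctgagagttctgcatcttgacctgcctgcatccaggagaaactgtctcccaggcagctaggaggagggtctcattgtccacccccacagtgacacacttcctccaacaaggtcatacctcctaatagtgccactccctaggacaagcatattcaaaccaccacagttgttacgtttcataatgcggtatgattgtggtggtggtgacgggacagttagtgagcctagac
Abcg2 start region 2, chr6:58596422-58596671: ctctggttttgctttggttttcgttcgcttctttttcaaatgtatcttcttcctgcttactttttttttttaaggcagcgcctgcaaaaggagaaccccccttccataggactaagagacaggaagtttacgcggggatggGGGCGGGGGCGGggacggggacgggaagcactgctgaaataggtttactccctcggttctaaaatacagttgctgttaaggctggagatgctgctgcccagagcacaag
Abcg2 start region 3, chr6:58640296-58640545: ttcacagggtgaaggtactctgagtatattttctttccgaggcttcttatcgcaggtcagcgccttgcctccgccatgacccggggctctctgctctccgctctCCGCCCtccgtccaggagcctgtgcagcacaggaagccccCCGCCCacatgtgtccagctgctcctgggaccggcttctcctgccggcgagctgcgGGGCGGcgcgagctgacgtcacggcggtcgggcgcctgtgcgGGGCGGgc
The third region carried 85.7% of all Abcg2 counts over the 10 libraries, the second 13.2% and the first 0.257%, and 0.827% belonged to transcripts assigned to none. The third region held 4 GC boxes and 67.6% G and C, the second 2 GC boxes and 50% G and C, and the first 0 GC boxes and 51.2% G and C. None of the 3 held the TATA box. Of 32851 RefSeq windows of 250 bases, 32.7% held the GC box and 12.4% the TATA box on either strand.

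The shares of Abcg2 counts by start region differed between the treatment groups by less than the spread between libraries. The third region had 86.2 ± 2.01% of Abcg2 counts in vehicle and 85.3 ± 3.19% in AM6545 libraries, and the second had 12.6 ± 1.82% and 13.7 ± 2.87% (SD over 5 libraries). Across the 10 libraries the share of the third region stayed between 81.7% and 90.4%. These shares are of counts not divided by transcript length, so they do not measure how often each start is used. The main transcript of the third region, Abcg2-202, has 2178 bases and that of the second, Abcg2-201, has 5717. The shares also rest on the authors' estimates of how reads divide between transcripts, whose own error the table does not give.

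Per transcript length, Itm2a, Slc2a1 and Mfsd2a were the highest of the 10 genes and Pecam1, Flt1 and Abcb1a the lowest. Levels are compared between genes in TPM, the count divided by annotated transcript length and scaled to a fixed total. Itm2a, which encodes a small membrane protein much used as a marker of brain endothelium, had 51.9 ± 7.18 TPM over the 10 libraries (SD). Slc2a1, the gene of the glucose carrier GLUT1 of endothelium and glia, had 42.1 ± 5.60 TPM. Mfsd2a, the carrier of lysophosphatidylcholine-bound omega-3 fatty acids, had 23.1 ± 3.39 TPM. Abcg2 followed with 15.4 ± 1.44 TPM and the tight junction gene Ocln with 13.2 ± 3.43 TPM. Slco1a4, an uptake carrier of organic anions, had 6.28 ± 3.01 TPM, and Cldn5, the main claudin of brain endothelial tight junctions, had 5.003 ± 1.74 TPM. The 3 lowest were the adhesion molecule gene Pecam1 at 0.759 ± 0.349 TPM, the VEGF receptor gene Flt1 at 0.722 ± 0.309 TPM and the P-glycoprotein gene Abcb1a at 0.458 ± 0.172 TPM.

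Within this order, Slc2a1 lay above Mfsd2a, Mfsd2a above Abcg2 and Cldn5 above Pecam1 with no overlap of the library ranges of the pair. Mfsd2a exceeded Abcg2 in all 10 libraries. Other neighbours overlapped. Itm2a exceeded Slc2a1 in 7 of 10 libraries, Slco1a4 exceeded Cldn5 in 6 and Pecam1 exceeded Flt1 in 6. The pump gene Abcb1b, the close paralogue of Abcb1a, had 2.51 ± 0.716 TPM, above Abcb1a.

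**Figure D1:**
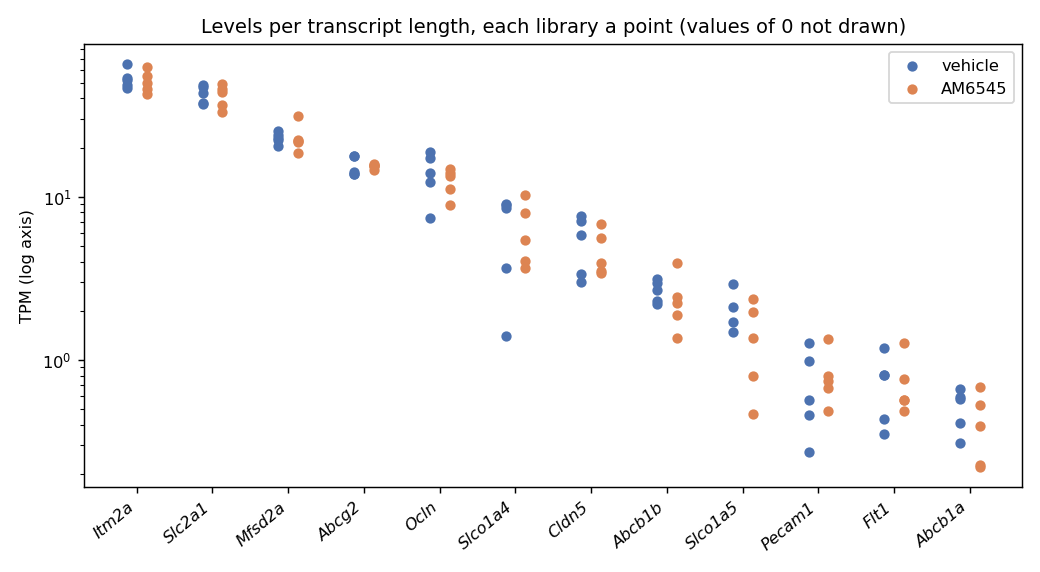
Levels of the 10 barrier and efflux genes and of the paralogues Abcb1b and Slco1a5 in TPM on a log axis, with each of the 5 vehicle and 5 AM6545 libraries a point. Itm2a and Slc2a1 are the highest (42.3 to 64.9 and 33.0 to 48.7 TPM) and Abcb1a the lowest (0.220 to 0.685 TPM), and the groups overlap for every gene; Slco1a5 is at 0 in vehicle replicate 4.

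The comparison asked whether the barrier and efflux genes differed between AM6545 and vehicle libraries. In the quasi-likelihood test of edgeR, 0 of the 10 had an adjusted p under 0.05, and 0% of all 14358 genes tested did. None had an unadjusted p under 0.05, a level reached by 270 of all genes tested (1.88%). The smallest edgeR adjusted p over all genes was 0.9998, and each of the 10 had that value. The DESeq2 Wald test also called 0 genes, and limma-voom with sample quality weights called 1, Insc, which is no barrier gene. The estimates ran from a log2 fold change of -0.67 for Abcb1a to 0.24 for Pecam1, and their median was -0.065, against -0.0057 over all genes tested. Below 0 were 9 of the 10 estimates, where 51.9% of all genes tested were below 0, and this count fell to 5 when vehicle replicate 3 was left out.

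**Figure D2:**
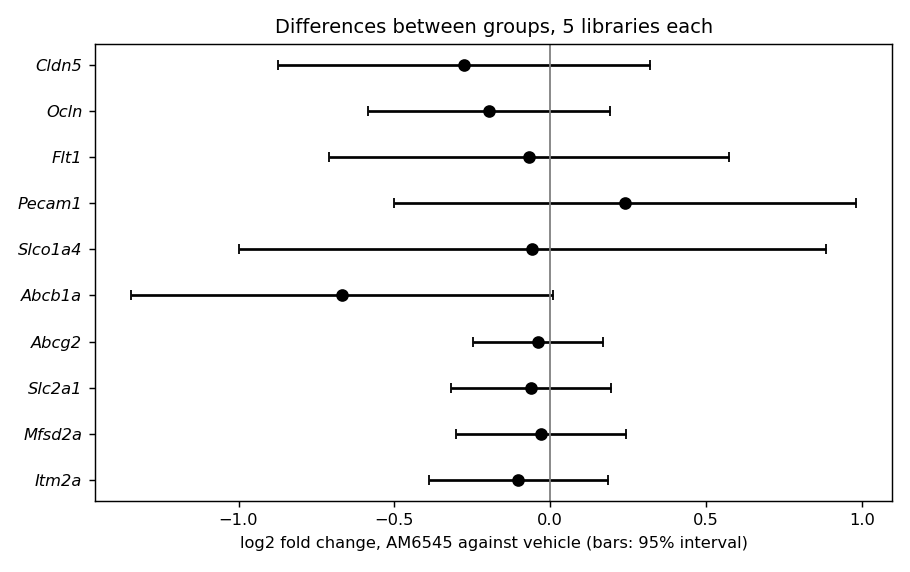
Log2 fold change of each gene in AM6545 against vehicle libraries (x axis) with its 95% interval, from edgeR's fit over all genes, 5 libraries per group. Every interval includes 0; that of Abcb1a, from -1.34 to 0.0083, only just does, and that of Abcg2, from -0.25 to 0.17, is the narrowest.

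The efflux pump gene Abcb1a (chr5:8660077-8748575, plus strand, GENCODE M21 on GRCm38, as for the other genes) came nearest to a difference. It encodes P-glycoprotein, the pump that keeps many drugs out of the brain. The vehicle libraries held 1.26, 1.37, 0.825, 1.07 and 1.02 CPM in replicates 1 to 5, and the AM6545 libraries held 1.21, 0.586, 0.551, 0.333 and 0.791 CPM. In CPM, all AM6545 libraries but replicate 1 lay below all vehicle libraries. In TPM the AM6545 libraries held 0.685, 0.226, 0.390, 0.220 and 0.525, and the vehicle libraries 0.310 to 0.659. Only AM6545 replicates 2 and 4 lay below all vehicle libraries in TPM, and replicate 1 lay above all of them. How many of all genes tested were split in this way was not counted. The means were 1.11 ± 0.212 CPM and 0.694 ± 0.332 CPM (SD over 5 libraries; edgeR log2 fold change -0.67 with SE 0.32 and unadjusted p = 0.0526, adjusted p = 0.9998). Without AM6545 replicate 1 the log2 fold change was -0.997 (edgeR unadjusted p = 0.00660, adjusted p = 0.9999), and without AM6545 replicate 4 it was -0.48 (edgeR unadjusted p = 0.143).

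The counts behind Abcb1a were few and partly ambiguous. Each library held 8 to 31.2 estimated counts. Its GENCODE M21 transcripts hold 5472 words of 31 bases, and 23.3% of them are shared with another gene, 1186 with Abcb1b. In the same annotation an exon of Gm42686 overlaps Abcb1a on the opposite strand. Abcb1b had 3.30 ± 0.584 CPM with vehicle and 2.90 ± 0.530 CPM with AM6545 (SD over 5 libraries; edgeR log2 fold change -0.18 with SE 0.19 and unadjusted p = 0.350). The sum of both genes does not depend on how reads were divided between them, and came to 4.41 ± 0.437 CPM and 3.60 ± 0.478 CPM (SD over 5 libraries), with ranges of 3.93 to 5.08 CPM and 2.82 to 4.001 CPM. These ranges overlapped between 3.93 and 4.001 CPM. Of the AM6545 libraries, replicate 1 reached into the vehicle range and replicate 2 lay barely below it. AM6545 replicate 2 held 0.586 CPM of Abcb1a and 3.34 CPM of Abcb1b, and vehicle replicate 4 held 1.07 and 2.86 CPM. The sum was not tested, and its ranges were not set beside those of other genes. Abcb1a made up 25.5 ± 6.11% of this sum in vehicle and 19.5 ± 9.12% in AM6545 libraries.

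Abcg2 (chr6:58584523-58695676, plus strand) had the narrowest interval of the 10. Vehicle libraries held 18.2, 18.3, 20.3, 16.3 and 16.4 CPM, and AM6545 libraries 16.5, 17.98, 18.5, 16.7 and 17.3 CPM. The AM6545 values all lay inside the vehicle range. The means were 17.9 ± 1.63 CPM and 17.4 ± 0.838 CPM (SD over 5 libraries; edgeR log2 fold change -0.04 with SE 0.099 and unadjusted p = 0.692). That interval, at 95%, ran from 0.841-fold to 1.12-fold.

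Slco1a4 (chr6:141805440-141856199, minus strand) encodes Oatp1a4, a carrier of organic anions and some drugs. It had the widest interval of the 10, from 0.501-fold to 1.85-fold, on 69 to 306 counts. Vehicle libraries held 7.76, 12.9, 13.1, 2.83 and 12.5 CPM, and AM6545 libraries 8.31, 5.37, 11.3, 6.99 and 15.1 CPM. Vehicle replicate 4 was the lowest of all and AM6545 replicate 5 the highest, so the groups overlapped widely. The means were 9.80 ± 4.48 CPM and 9.42 ± 3.86 CPM (SD over 5 libraries; edgeR log2 fold change -0.06 with SE 0.42 and unadjusted p = 0.895), and without vehicle replicate 4 the log2 fold change was -0.30 (edgeR unadjusted p = 0.259). Its paralogue Slco1a5 had 0 counts in vehicle replicate 4 and 12 to 77 in the others, and 5.03% of the words of that length in Slco1a4 are shared with another gene.

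**Figure D3:**
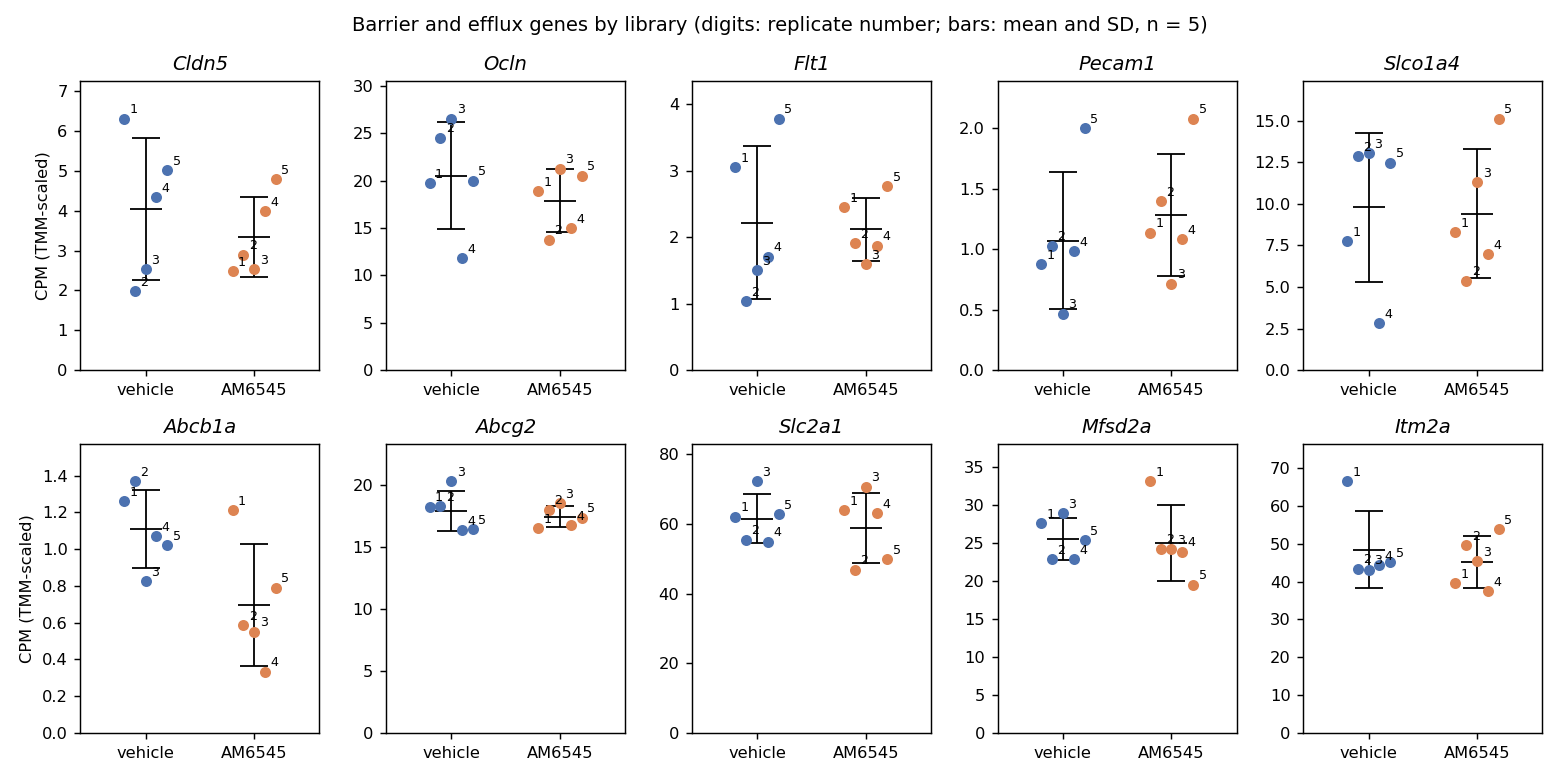
Level of each barrier and efflux gene in TMM-scaled CPM (y axes start at 0) in the 5 vehicle and 5 AM6545 libraries, with replicate numbers beside the points and the mean and SD as bars. The groups overlap for every gene, least for Abcb1a, where 4 of 5 AM6545 libraries lie below all vehicle libraries.

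The tight junction genes did not differ by more than the spread between libraries. Cldn5 (chr16:18776847-18778262, plus strand) held 6.31, 1.99, 2.54, 4.34 and 5.01 CPM with vehicle and 2.49, 2.89, 2.53, 3.99 and 4.79 CPM with AM6545. All AM6545 values lay within the vehicle range, which was the wider. The means were 4.04 ± 1.78 CPM and 3.34 ± 1.01 CPM (SD over 5 libraries; edgeR log2 fold change -0.28 with SE 0.28 and unadjusted p = 0.343). The estimate was -0.062 without vehicle replicate 1 and -0.45 without vehicle replicate 2. Ocln (chr13:100496507-100552718, minus strand) encodes occludin, a membrane protein of tight junctions in endothelium and epithelium. It held 19.8, 24.5, 26.5, 11.8 and 20.0 CPM with vehicle and 18.9, 13.8, 21.3, 14.975 and 20.5 CPM with AM6545. Vehicle replicate 4 again was the lowest library. The means were 20.5 ± 5.67 CPM and 17.9 ± 3.34 CPM (SD over 5 libraries; edgeR log2 fold change -0.20 with SE 0.18 and unadjusted p = 0.299), and without vehicle replicate 4 the log2 fold change was -0.34 (edgeR unadjusted p = 0.0326, adjusted p = 0.9999).

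The endothelial surface genes Flt1 (chr5:147561604-147726011, minus strand) and Pecam1 (chr11:106654217-106750628, minus strand) were measured on few counts. Flt1, a receptor that binds VEGF, held 3.06, 1.04, 1.503, 1.70 and 3.78 CPM with vehicle and 2.45, 1.91, 1.597, 1.87 and 2.77 CPM with AM6545, on 22 to 89 counts. The AM6545 values all fell inside the vehicle range (edgeR log2 fold change -0.07 with SE 0.30 and unadjusted p = 0.826). Pecam1, an adhesion molecule of endothelial cells that platelets and leukocytes also carry, held 0.873, 1.03, 0.467, 0.983 and 1.9995 CPM with vehicle and 1.14, 1.395, 0.716, 1.08 and 2.08 CPM with AM6545, on 9 to 47.1 counts. It was the only one of the 10 with an estimate above 0 (edgeR log2 fold change 0.24 with SE 0.35 and unadjusted p = 0.504), which was 0.0018 without AM6545 replicate 5 and 0.59 without vehicle replicate 5. The groups overlapped, with 1 AM6545 library just above all vehicle libraries.

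The nutrient carriers and Itm2a had the deepest counts. Slc2a1 (chr4:119108711-119137983, plus strand) held 62.1, 55.5, 72.2, 54.9 and 62.8 CPM with vehicle and 63.99, 46.9, 70.7, 63.0 and 49.8 CPM with AM6545 (edgeR log2 fold change -0.06 with SE 0.12 and unadjusted p = 0.616). An exon of Gm12868 overlaps Slc2a1 on the opposite strand in GENCODE M21. Mfsd2a (chr4:122946850-122961188, minus strand) held 27.7, 22.9, 28.9, 22.9 and 25.4 CPM with vehicle and 33.1, 24.3, 24.2, 23.9 and 19.5 CPM with AM6545. AM6545 libraries were thus both its highest and its lowest (edgeR log2 fold change -0.03 with SE 0.13 and unadjusted p = 0.823). Itm2a (chrX:107397099-107403376, minus strand) held 66.5, 43.4, 43.1, 44.3 and 45.2 CPM with vehicle and 39.6, 49.6, 45.4, 37.5 and 53.9 CPM with AM6545. Vehicle replicate 1 stood above the other 4 vehicle libraries, and without it the log2 fold change of -0.10 (SE 0.14, edgeR unadjusted p = 0.461) became 0.038. The 95% intervals ran from 0.802-fold to 1.14-fold for Slc2a1, 0.811-fold to 1.18-fold for Mfsd2a and 0.764-fold to 1.14-fold for Itm2a.

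Across libraries, the barrier genes did not rise and fall as 1 group. Over the 45 pairs of members, Pearson's r of log2 CPM across the 10 libraries ranged from -0.68 to 0.90 with a median of 0.082. Relations were computed for these pairs and for each member with the mean log2 CPM of the choroid plexus markers and with that of the pericyte and smooth muscle markers, 65 in all, each with a permutation test of 100000 resamples. Adjusted over the 65, 3 had an adjusted p for r under 0.05, and all 3 involved Ocln or Slco1a4. They were chosen for description after their values were seen.

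Ocln and Slco1a4 moved together and with the choroid plexus markers. Between Ocln and Slco1a4 r was 0.902 (permutation p = 0.00028, adjusted 0.00942) and Spearman's rho was 0.891 (permutation p = 0.00104, adjusted 0.0676). Ocln had r = 0.900 with the choroid plexus level (permutation p = 0.00029, adjusted 0.00942; rho = 0.770, permutation p = 0.0130, adjusted 0.262). Slco1a4 had r = 0.919 with it (permutation p = 0.00098, adjusted 0.0212; rho = 0.709, permutation p = 0.0267, adjusted 0.282). The rank correlations therefore did not pass the adjustment.

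Without vehicle replicate 4, r with the choroid plexus level was 0.882 for Ocln and 0.791 for Slco1a4, and r between them was 0.839. Without the 2 libraries farthest from the median choroid plexus level, vehicle replicate 4 and AM6545 replicate 4, r with that level was 0.851 for Ocln and 0.783 for Slco1a4. Within the vehicle libraries r was 0.924 for Ocln and 0.925 for Slco1a4, and within the AM6545 libraries 0.938 and 0.937 (n = 5 each). Without the 2 libraries farthest from the median Slco1a4 level, r between Ocln and Slco1a4 was 0.726. The labels give no batch, and these relations were not computed with the replicate number taken into account. With the choroid plexus level as a covariate, the standard error of the Slco1a4 fold change went from 0.42 to 0.17 and that of Ocln from 0.18 to 0.11. The log2 fold changes were then 0.07 for Slco1a4 (edgeR unadjusted p = 0.667) and -0.15 for Ocln (edgeR unadjusted p = 0.201).

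**Figure D4:**
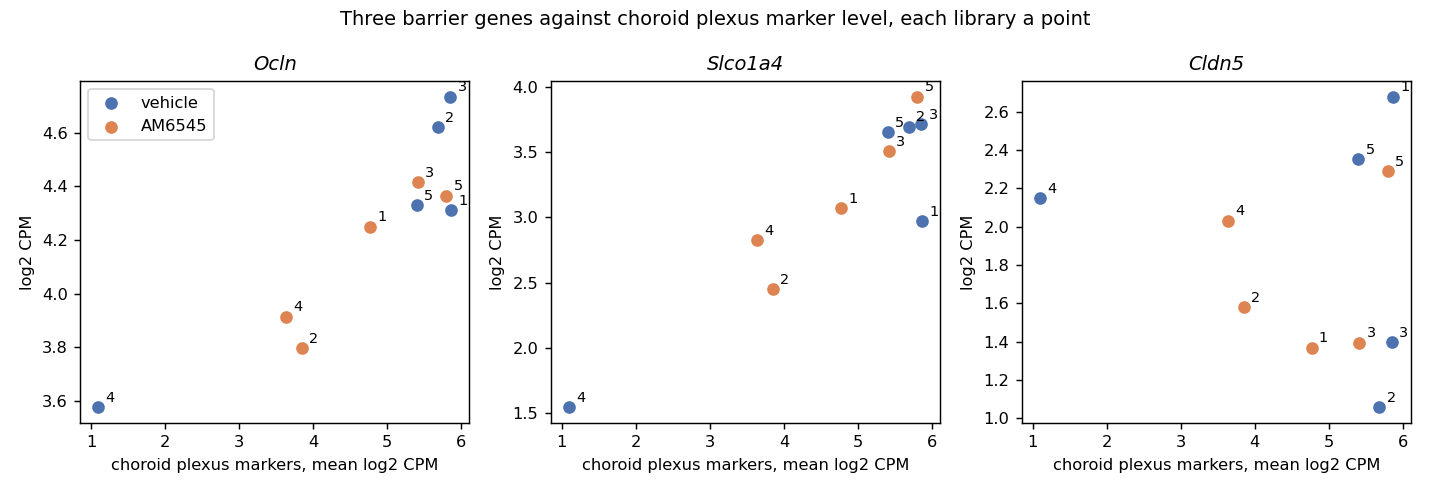
Log2 CPM of Ocln, Slco1a4 and Cldn5 against the mean log2 CPM of 12 choroid plexus markers, with each library a point labelled by its replicate number. Ocln and Slco1a4 climb with the marker level (r = 0.900 and 0.919), with vehicle replicate 4 lowest on both axes, and Cldn5 does not (r = -0.121).

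Cldn5 and Flt1 followed another order of libraries. Between them r was 0.767 (permutation p = 0.0104, adjusted 0.135; rho = 0.745, permutation p = 0.0174, adjusted 0.262), short of the threshold after adjustment, and 0.634 without the 2 libraries farthest from the median of Flt1. Cldn5 with the choroid plexus level gave r = -0.121 (permutation p = 0.768, adjusted 0.9575; rho = 0.115, permutation p = 0.759, adjusted 0.964). Itm2a gave r = 0.780 with the pericyte and smooth muscle level (permutation p = 0.00915, adjusted 0.135; rho = 0.661, permutation p = 0.0441, adjusted 0.319), but 0.163 without AM6545 replicate 5 and vehicle replicate 1, so it rested on those libraries. The map of libraries and genes shows the separate patterns.

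**Figure D5:**
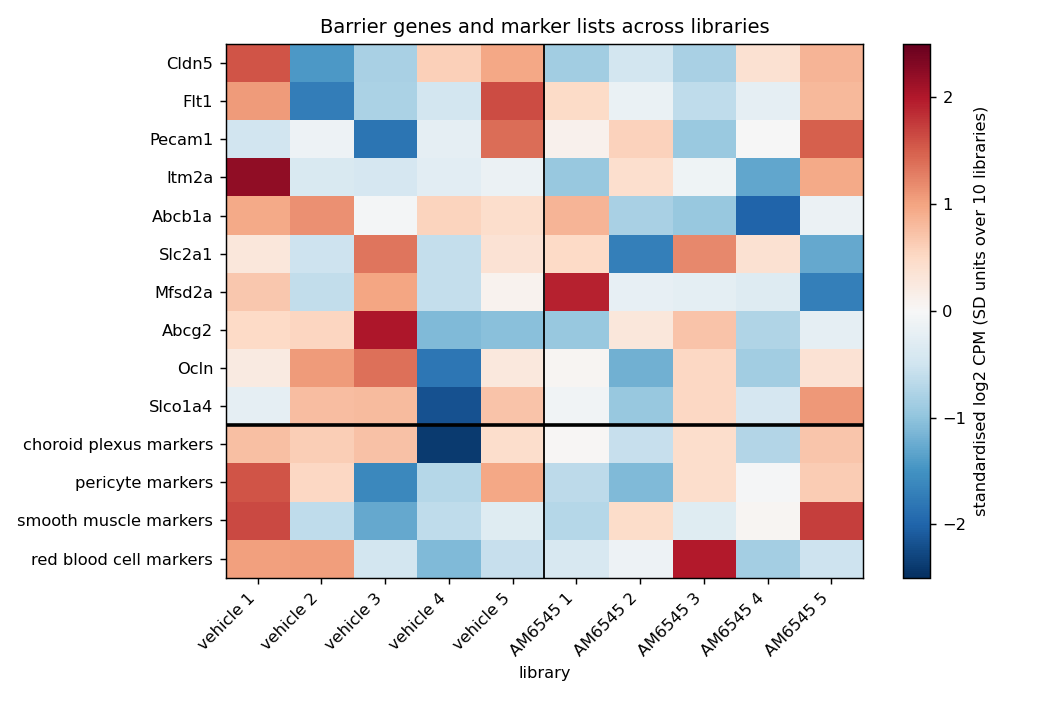
Standardised log2 CPM (colour, in SD units over the 10 libraries) of the 10 genes above the thick line and of the mean of 4 marker lists below it, by library. Ocln, Slco1a4 and the choroid plexus markers share the low value of vehicle replicate 4, whereas Cldn5 is highest in vehicle replicate 1 (6.31 CPM) and lowest in vehicle replicate 2 (1.99 CPM).

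By the rule for genes of like pattern, the mean standardised level of the 10 was compared with 13506 other genes of at least 1 CPM on average. The 8 highest were Lrrc46 (r = 0.945), Gnmt (0.944), Tekt1 (0.935), Plek2 (0.923), Ltc4s (0.918), Igfbp7 (0.917), 4932438H23Rik (0.915) and Dydc2 (0.914), as a description over 10 libraries. They are the extremes of a search of 13506 genes and were not tested. The mean they follow is that of 10 genes that did not rise and fall as 1 group. The mean level was highest in vehicle replicate 1 (0.68 SD units) and lowest in vehicle replicate 4 (-0.61 SD units).

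At the transcript level, 51 transcripts of the 10 genes were matched, 38 had a count and 16 passed the filter. In the same edgeR test, 0 of the 16 had an adjusted or an unadjusted p under 0.05, where 1 of 31848 transcripts tested (0.00314%) passed the first and 1.97% the second. The smallest p among the 16 was that of Abcb1a-201, the protein-coding transcript of Abcb1a (edgeR log2 fold change -1.498 with SE 0.76 and unadjusted p = 0.0772, adjusted p = 0.9999). It had 0 to 28.9 counts per library, and Abcb1a-202, which retains an intron, had an estimate in the other direction (edgeR log2 fold change 0.58 with SE 1.23 and unadjusted p = 0.644). The share of Abcb1a-202 in the counts of the gene was 22.4 ± 31.1% with vehicle and 61.2 ± 38.8% with AM6545 (SD over 5 libraries), and ran from 0% to 100% between libraries.

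The make-up of several genes was not what their main coding transcript alone would give. Of Slc2a1 counts, 61.5% were assigned to the coding transcript Slc2a1-201 and 38.5% to Slc2a1-204, which is annotated as a target of nonsense-mediated decay, the pathway that removes RNAs with early stop codons. The share of Slc2a1-204 was 39.4 ± 5.78% with vehicle and 38.1 ± 3.798% with AM6545 (SD over 5 libraries), with all 10 libraries between 32.4% and 47.5%. Flt1 gives a membrane receptor and, by ending early, a soluble form. Of its counts, 67.9% were assigned to Flt1-203, a coding transcript that ends 73.6 kb before the longer Flt1-202, which held 26.9%. These shares were 70.7 ± 11.7% and 23.6 ± 8.10% in vehicle and 65.4 ± 19.9% and 29.98 ± 15.4% in AM6545 libraries (SD over 5 libraries), on 22 to 89 counts for the gene.

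In other genes the transcript estimates switched between libraries. Ocln-201 held 41.0% of Ocln counts over all libraries, but 0 in AM6545 replicate 4, the only library in which Ocln-205 had counts (135). Ocln-202 was steadier, with 111 to 166 counts in every library. Pecam1-202, Pecam1-203 and Pecam1-204 were at 0 in 7, 5 and 7 of 10 libraries, and Slco1a4-201 in 2. Cldn5 and Itm2a are represented by 1 transcript each, and Mfsd2a-201 held 99.7% of Mfsd2a counts.

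Beyond the 10, other genes of the barrier were examined in 6 lists of 12 genes each, of which 67 of 72 passed the filter. By edgeR none passed the adjusted threshold, and 1 was higher and 2 lower at an unadjusted p under 0.05, which is 4.48% of the 67 beside 1.88% of all genes tested. Their median log2 fold change was -0.054, and 40 of 67 were below 0. Esam, an endothelial junction adhesion molecule, had 5.89 ± 1.62 CPM with vehicle and 4.35 ± 0.380 CPM with AM6545 (SD over 5 libraries; edgeR log2 fold change -0.44 with SE 0.18 and unadjusted p = 0.0250, adjusted p = 0.9998), with 5 of 5 AM6545 libraries below the vehicle mean. Slc15a2, a peptide carrier, had 21.7 ± 2.65 CPM and 18.4 ± 1.95 CPM (SD over 5 libraries; edgeR log2 fold change -0.24 with unadjusted p = 0.0489). Adgra2, a gene of the Wnt signalling that induces barrier genes, had 1.07 ± 0.305 CPM and 1.56 ± 0.190 CPM (SD over 5 libraries; edgeR log2 fold change 0.53 with unadjusted p = 0.0463) on 15 to 38 counts.

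By role, the median log2 fold change of the other junction genes was -0.0054, with 5 of 11 tested above 0. Lsr, a component of tricellular junctions, was at an edgeR log2 fold change of -0.39 (unadjusted p = 0.311). Other efflux and uptake carriers had a median of -0.21, with 3 of 11 above 0, and included the pump gene Abcc4 (edgeR log2 fold change -0.45 with SE 0.26 and unadjusted p = 0.102) and the monoamine carrier gene Slc29a4 (-0.21, unadjusted p = 0.233). Other nutrient carriers had a median of 0.02 and 6 of 11 above 0. The smallest p-values there were those of the glutamine carrier genes Slc38a3 (edgeR log2 fold change -0.33, unadjusted p = 0.128) and Slc38a5 (-0.42, unadjusted p = 0.147), followed by Slc7a5, the carrier of large neutral amino acids (0.19, unadjusted p = 0.252). For Slc38a5, all vehicle values exceeded 4 of the 5 AM6545 values, but the fifth, 6.44 CPM, was near the vehicle maximum of 6.53 CPM. In the 6 lists the same held for Apold1 (edgeR unadjusted p = 0.379) and for Slc19a3, which did not pass the filter. How often it held over all genes was not counted. Other endothelial receptors had a median of 0.03 and 7 of 11 above 0. Among them edgeR gave the smallest p-values to Eng, a co-receptor of TGF-beta ligands (log2 fold change 0.56, unadjusted p = 0.0701), Tie1 (0.68, unadjusted p = 0.145) and Ramp2 (-0.15, unadjusted p = 0.288), and Eng and Tie1 had at most 29 counts in any library. Kdr, the main VEGF receptor, had 3.23 ± 0.745 CPM with vehicle and 3.26 ± 0.773 CPM with AM6545 (SD over 5 libraries; edgeR unadjusted p = 0.970). Wnt signalling and transcription factor genes had a median of -0.15 and 5 of 11 above 0, and Foxf2 was at an edgeR log2 fold change of 0.44 (unadjusted p = 0.213). Of the other endothelial markers 1 of 12 was above 0, with a median of -0.19, and the smallest edgeR p-values were those of Egfl7 (log2 fold change -0.198, unadjusted p = 0.225), Ctla2a (-0.32, unadjusted p = 0.281) and Ly6a (-0.38, unadjusted p = 0.308).

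Summed markers of other cell types overlapped between the groups. Pericyte markers summed to 82.6 to 160.4 CPM with vehicle and 84.5 to 146.7 CPM with AM6545, and their best-known gene Rgs5 had 24.2 ± 3.47 and 24.3 ± 2.02 CPM (SD over 5 libraries). Smooth muscle markers summed to 12.96 to 45.6 CPM and 15.1 to 42.4 CPM. Astrocyte markers, whose cells also carry GLUT1, summed to 2536 to 3154 CPM and 2444 to 3673 CPM. Of the 10 astrocyte markers 6 had estimates above 0, with a median log2 fold change of 0.058. The smallest p among them was that of Aldh1l1, which had 67.2 ± 6.27 CPM with vehicle and 81.2 ± 8.52 CPM with AM6545 (SD over 5 libraries; edgeR log2 fold change 0.27 with SE 0.10 and unadjusted p = 0.0147, adjusted p = 0.9998), while Gfap was at 0.16 (edgeR unadjusted p = 0.260) and the endfoot water channel gene Aqp4 at -0.11 (edgeR unadjusted p = 0.306). In the same order of groups, fibroblast markers summed to 152 to 282 and 209 to 260 CPM, microglial markers to 711 to 934 and 697 to 972 CPM, and oligodendrocyte markers to 14454 to 20967 and 12266 to 28261 CPM. All 12 choroid plexus markers had estimates below 0, with a median log2 fold change of -0.52, and none had an unadjusted p under 0.05 (smallest 0.368). These estimates include vehicle replicate 4, whose markers summed to 76.0 CPM against 2796 to 5297 CPM in the other vehicle libraries. AM6545 replicates 1, 2 and 4 (1699, 992.0 and 699.9 CPM) lay below those others. Replicate 3 (2773 CPM) lay only just below them, and replicate 5 (4199 CPM) within their range. Estimates without vehicle replicate 4 are not given for these markers. This split was therefore not tested, and how often it held over all genes was not counted. The part of the choroid plexus markers in the estimates of the efflux and uptake carriers and of the other endothelial markers was not tested.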

How the data were processed

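The authors deposited estimated counts per gene and per transcript, 10 library columns in each table. Salmon 1.5.2 and the build mm10 are named in the submitters' processing notes; the annotation release and use of strand are not given in the sources used here. The labels' protocols name a SMARTer kit for low amounts of RNA. Of the gene values, 38.6% were not whole numbers, and counts were rounded before fitting. Symbols were matched by identifier without version for 22155 of 22255 genes, and names and lengths from GENCODE M21 for 101527 of 102392 transcripts. Only 11 gene identifiers had the same version as in that release, so the authors' annotation may differ from it. TPM used annotated rather than effective lengths. Promoter sequences are from RefSeq (GRCm38.p6), with 9 of the 10 genes matched.

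Groups were compared in edgeR 4.0.16 in R 4.3.3 with TMM, filterByExpr (minimum count 10, minimum total 15), group alone, robust quasi-likelihood dispersions and Benjamini-Hochberg adjustment over all genes or transcripts tested. All tests were two-sided. Standard errors are the fold change over the root of the F statistic. Alternatives used DESeq2 1.42.0, limma 3.58.1 (voom) and other filters, scalings and covariates. Log2 CPM used a prior count of 2. Correlations used Python 3.11.15 with scipy 1.17.1. Scripts were tested on simulated data. The genes and lists were chosen with earlier results of these data known. All 10 genes were named. From each other barrier list and the astrocyte list up to 3 genes of smallest p were named, except items not reported here, the other marker lists being given as sums. Also named were Abcb1b, Slco1a5, Cdh5, Kdr, Pdgfrb and Rgs5, the 8 genes of most similar pattern, and up to 3 transcripts per gene of highest count. Other choices were made after values were seen. Library totals were 19612936 to 25339403 counts in vehicle and 18106112 to 25899794 in AM6545 libraries. No molecular identifiers are named, so counts may include amplification copies.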

Additional observations from a re-analysis of the deposited data

Results flagged for a closer look

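In 28 groups of 5 libraries, covering the 10 genes and 4 marker lists in CPM, 3 held a library far from the other 4. Chance would give about 1.4 if the groups were independent, but they share libraries. Itm2a had 66.5 CPM in vehicle replicate 1, against 43.1 to 45.2 CPM in the other vehicle libraries. Smooth muscle markers summed to 45.6 CPM in the same library, against 12.96 to 18.9 CPM in the other 4. Red blood cell markers summed to 1333 CPM in AM6545 replicate 3, against 329 to 467 CPM in the other AM6545 libraries. Not among these 3 are the choroid plexus markers of vehicle replicate 4, at 76.0 CPM against 2796 to 5297 CPM in the other vehicle libraries.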

How the results depend on the processing

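Of 188 values of single barrier genes under 19 alternatives, 170 kept their direction, 18 changed sign, and none had an adjusted p under 0.05 (smallest 0.915). With limma-voom there were 1 called gene and 1 member with an unadjusted p under 0.05, Abcb1a, where 706 of 14358 genes tested were under that level. The replicate numbers share no stated pairing: same-numbered libraries correlated between -0.186 and 0.393, and 3 of 5 correlated best with their own number. With the replicate number as a block 1 member, Abcb1a (edgeR unadjusted p = 0.0363), had an unadjusted p under 0.05, as had 277 of 14358 genes tested. In that fit Flt1 was at 0.024 and Slco1a4 at 0.026 on the log2 scale, and 0 transcripts were called. With the choroid plexus level as covariate Slco1a4 was at 0.073. Transcripts called numbered 11 with the DESeq2 Wald test, 2 with no filter and 0 with at least 10 counts in every library, none of them from the 10 genes; that last filter also removes Abcb1a and Pecam1 from the gene table.

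Leaving out each library in turn gave 0 to 1 genes called, 0 to 4 transcripts called, 0 to 1 members with an unadjusted p under 0.05 (1 without AM6545 replicate 1, vehicle replicate 3 or vehicle replicate 4) and 5 to 9 members below 0. Of the 14402 to 14485 genes tested in these fits, 165 to 578 had an unadjusted p under 0.05. The log2 fold changes then ranged from -0.25 to 0.21 for Flt1, -0.30 to 0.088 for Slco1a4, -0.16 to 0.048 for Mfsd2a, -0.17 to 0.038 for Itm2a, -0.071 to 0.0085 for Abcg2 and -0.14 to 0.0097 for Slc2a1. Those of 4 members kept their sign, at -0.997 to -0.48 for Abcb1a, -0.45 to -0.062 for Cldn5, -0.34 to -0.088 for Ocln and 0.0018 to 0.59 for Pecam1. The cause of these shifts was not tested. The fewest counts lay behind Abcb1a (8 to 31.2 per library), Pecam1 (9 to 47.1) and Flt1 (22 to 89).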
